A study of Mus musculus with 4 samples.

Results

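Oxidative phosphorylation genes are those of the machinery that oxidizes NADH and succinate in mitochondria and makes ATP. They were taken as all genes of the array whose symbol begins with Nduf, Uqcr, Atp5 or one of Cox4 to Cox8, together with *Sdha*, *Sdhb*, *Sdhc* and *Sdhd*. The rule found 79 of 16380 genes. Of these, 74 are subunits of complexes I to V and 5 are not. The latter are *Ndufaf1* and *Ndufaf2*, which help to assemble complex I, *Atp5s* and *Atp5sl*, which RefSeq now names *Dmac2l* and *Dmac2*, and *Cox4nb*, now *Emc8*, which shares only the letters of its old symbol.

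RNA came from embryoid bodies (EBs), floating aggregates of mouse ES cells that differentiate into early tissues once 2i and LIF are withdrawn. Wild type EBs and *Mst-/-* EBs, which lack both Hippo pathway kinases Mst1 and Mst2, were compared at day 4 and day 8, with 1 array for each genotype and day. The *Mst-/-* ES cells were derived from blastocysts of C57BL/6 crosses, with both kinase genes deleted in every cell. The study describes more than 1 *Mst-/-* line and does not say which was hybridized. It gives no strain for the wild type ES cells. The genotype therefore cannot be told apart from the line or the strain. A description field of the day 8 *Mst-/-* array says day 4, whereas its title and characteristics say day 8, and it was taken as day 8.

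Electrons enter the chain at complex I (NADH dehydrogenase) or complex II (succinate dehydrogenase), pass through complex III and cytochrome c to complex IV (cytochrome c oxidase), and the proton gradient they build drives complex V (ATP synthase). Most of the subunits are encoded in the nucleus, and the rule took none of those encoded in mitochondrial DNA. A few subunits of complex IV have tissue forms, among them *Cox6a2* and *Cox8b* of heart and skeletal muscle, *Cox4i2* of lung, which low oxygen induces in some cells, and *Cox7b2* of testis. ES cells rely heavily on glycolysis, and their mitochondria mature as they differentiate.

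Each value is a log2 signal, the median over the probe sets of a gene, each of which reads a stretch of an exon. The 79 genes were read by 579 probe sets, with a median of 6 and a range of 1 to 20 for each gene. As no condition had a replicate array, no test was made, and the error given is the SD over probe sets of the same arrays, which holds no spread between cultures. Olfactory and vomeronasal receptor genes (1014) set the background at their 95th percentile, between 6.91 and 7.03 on the 4 arrays, and 69.5% to 71.9% of all genes lay above it. Signal from part of *Stk4*, the gene of Mst1, was lost in *Mst-/-* EBs. Over both days, 2 of its 13 probe sets had 11.42 to 12.03 in wild type and 3.83 to 4.80 in *Mst-/-* EBs. These 2 were picked by their large difference at day 4, not by their place in the deleted part of the gene. The gene of Mst2 is not shown. EBs are mixtures, and fewer cells of a type cannot be told apart here from less RNA per cell.

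Nearly every member was expressed in all 4 conditions. By the median over probe sets, 76 of the 79 genes were above background on every array, and 78 had at least 1 probe set above it on every array. The median of *Ndufb3*, an accessory subunit of complex I, passed background only in *Mst-/-* EBs at day 8, at 6.97, but 2 of its 5 probe sets were above it throughout, the brighter between 12.18 and 12.37. *Cox7b2* lay far below background, between 3.86 and 4.60, with none of its 4 probe sets above it. The median of the muscle form *Cox8b* was 6.34 (wild type) and 6.45 (*Mst-/-*) at day 4 and 7.03 and 6.32 at day 8, on no array above background. Of its 3 probe sets 1 was above background on every array, with 7.75, 7.76, 7.69 and 7.43 in the same order. The other muscle form measured, *Cox6a2*, was above background on all 4 arrays, while *Cox7a1* was not analysed here.

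**Figure D1:**
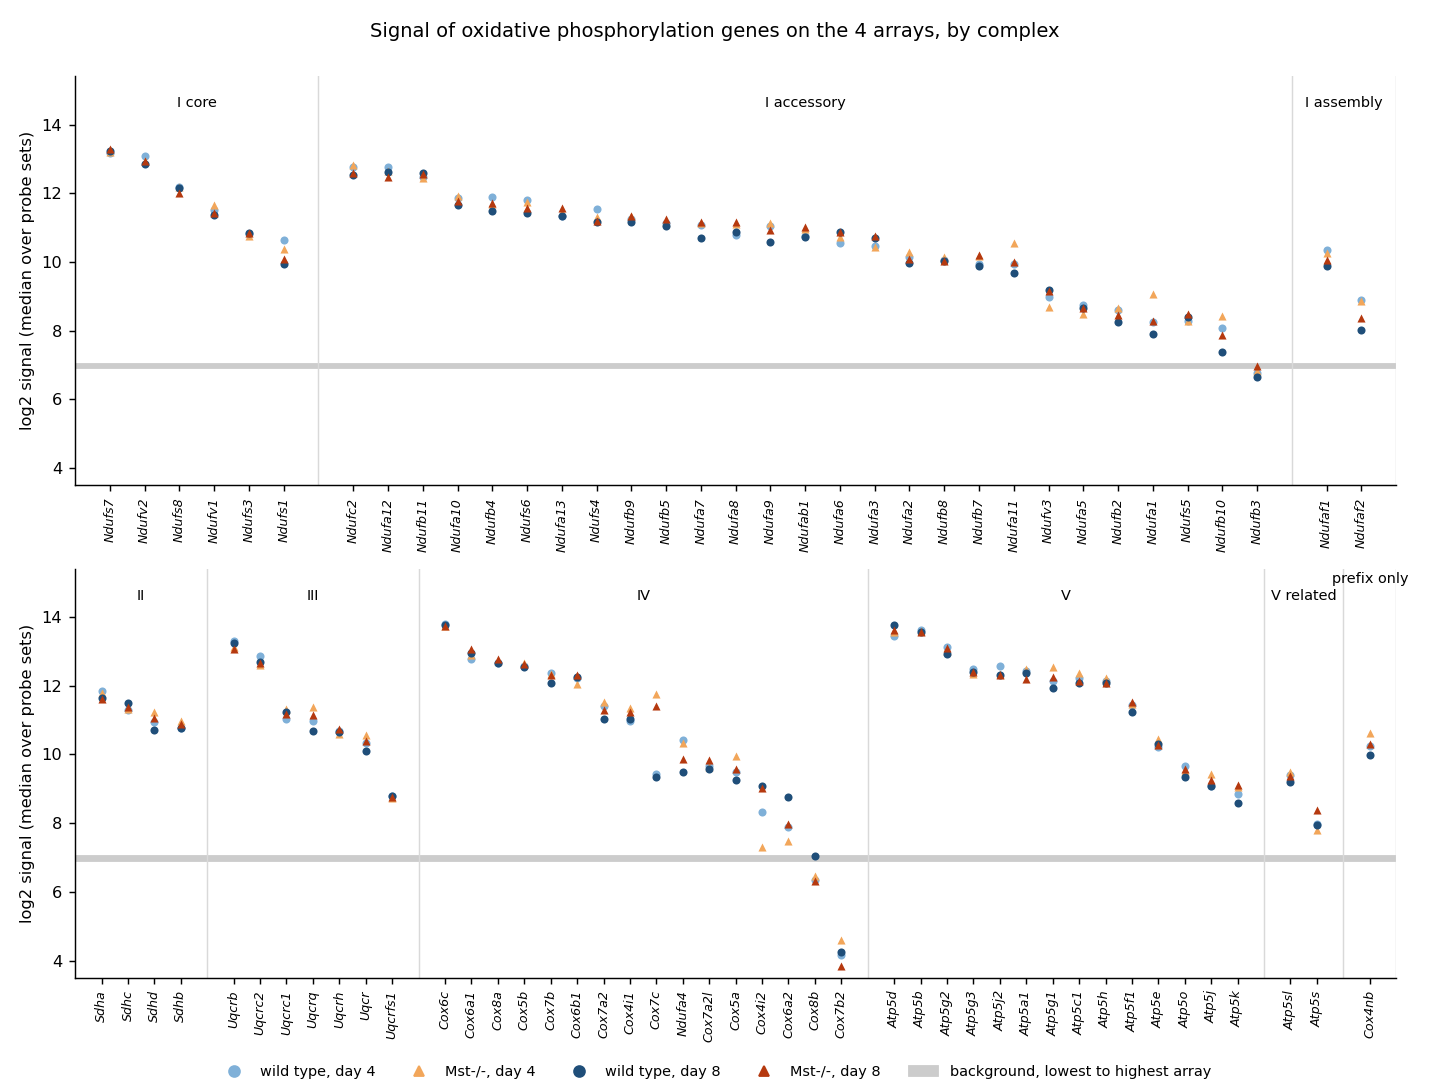
Log2 signal of the 79 genes (vertical axis) on the 4 arrays, grouped by complex and ordered by mean signal. Points are medians over probe sets, circles are wild type and triangles *Mst-/-* EBs, light colors are day 4 and dark colors day 8, and the grey band spans the backgrounds of 6.91 to 7.03. For most genes the 4 points lie close together, and *Cox7c*, *Cox4i2* and *Cox6a2* of complex IV spread most visibly.

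The promoters of a few of these genes are shown because they hold, or lack, short words bound by factors known for nuclear genes of mitochondria. RefSeq windows of GRCm38.p6, from 250 bases before to 50 after a transcription start, were found for 66 of the 79 genes (72 windows). They were searched on both strands for NRF1 (GCATGCGC), ETS factors such as GABP (CTTCCGG), YY1 (AAGATGGC) and ERR receptors (TGACCTTG). The NRF1 word can overlap its own reverse complement, and the ETS and YY1 words can share bases. The 250 bases before the start are printed, with matches in capitals.
Cox6a1, chr5:115348959-115349208, minus strand: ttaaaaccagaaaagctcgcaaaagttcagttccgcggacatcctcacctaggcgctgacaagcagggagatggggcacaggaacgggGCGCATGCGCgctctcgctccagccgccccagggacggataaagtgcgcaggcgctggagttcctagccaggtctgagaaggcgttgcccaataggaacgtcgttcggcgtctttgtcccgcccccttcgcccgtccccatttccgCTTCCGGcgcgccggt
Atp5g2, chr15:102671048-102671297, minus strand: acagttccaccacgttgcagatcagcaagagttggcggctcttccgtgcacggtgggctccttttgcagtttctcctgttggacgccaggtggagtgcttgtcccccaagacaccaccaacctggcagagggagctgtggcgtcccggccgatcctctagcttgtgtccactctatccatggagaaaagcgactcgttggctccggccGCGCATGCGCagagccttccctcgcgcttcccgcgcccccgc
Cox8b, chr7:140900447-140900696, minus strand: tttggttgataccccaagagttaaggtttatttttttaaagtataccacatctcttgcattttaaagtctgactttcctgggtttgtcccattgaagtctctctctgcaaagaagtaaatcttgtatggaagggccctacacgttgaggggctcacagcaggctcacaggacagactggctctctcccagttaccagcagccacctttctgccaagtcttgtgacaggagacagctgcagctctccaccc
Ndufa4, chr6:11907451-11907700, minus strand: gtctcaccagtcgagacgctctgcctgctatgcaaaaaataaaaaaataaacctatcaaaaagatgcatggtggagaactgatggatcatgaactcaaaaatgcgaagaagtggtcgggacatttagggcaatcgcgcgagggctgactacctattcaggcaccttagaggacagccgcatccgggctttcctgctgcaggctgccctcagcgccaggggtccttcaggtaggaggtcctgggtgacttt
Cox7c, chr13:86046796-86047045, minus strand: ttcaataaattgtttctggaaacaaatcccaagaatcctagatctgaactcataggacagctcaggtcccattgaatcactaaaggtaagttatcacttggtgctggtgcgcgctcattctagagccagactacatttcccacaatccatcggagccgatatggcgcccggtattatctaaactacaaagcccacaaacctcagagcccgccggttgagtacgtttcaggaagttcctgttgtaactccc

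*Cox6a1*, the widely used partner of the muscle gene *Cox6a2*, held overlapping NRF1 words and an ETS word. *Atp5g2*, a gene for the c subunit of ATP synthase, held overlapping NRF1 words close to the start. The windows of *Cox8b*, *Ndufa4* and *Cox7c* held none of the 4 words in the form searched, which says only that these letters are not there. Of the 72 windows, 12.5% held the NRF1 word against 2.71% of all 32851 windows, 20.8% against 8.86% held the ETS word, 15.3% against 2.75% the YY1 word and 4.17% against 1.56% the ERR word. At least 1 of the 4 words was in 44.4% of the windows of these genes and in 14.7% of all windows.

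At day 4, few of the genes differed between the genotypes by the study's threshold of 1.5-fold. Of 76 genes compared, *Cox7c*, *Ndufa1* and *Ndufa11* were over 1.5-fold higher in *Mst-/-* EBs, *Cox4i2* was over 1.5-fold lower, and the other 72 were within it. The median log2 difference was 0.04. Over all 11955 genes compared, 10.3% were higher and 8.53% were lower. At day 8, 75 of 77 genes lay within 1.5-fold, *Cox7c* was higher and *Cox6a2* lower, with a median of 0.12. Over all 12175 genes compared at day 8, 8.41% were higher and 8.21% lower.

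The signals of these probe sets were mostly far above background, so the shares were also counted among bright genes. Of the 4195 genes with a mean signal of at least 9.849, the lower quartile of the members, 12.0% were past 1.5-fold in either direction between the genotypes at day 4 and 10.3% at day 8. Of the 59 members at that brightness, 3.39% and 1.69% were. Above this floor, which does not match the genes further for brightness, the shares of the members were below those of all genes, members included, on both days. Small differences at day 8 leaned upward in *Mst-/-* EBs, since 54 of 77 members (70.1%) had a value above 0, against 55.6% of all genes and 65.9% of the bright genes.

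**Figure D2:**
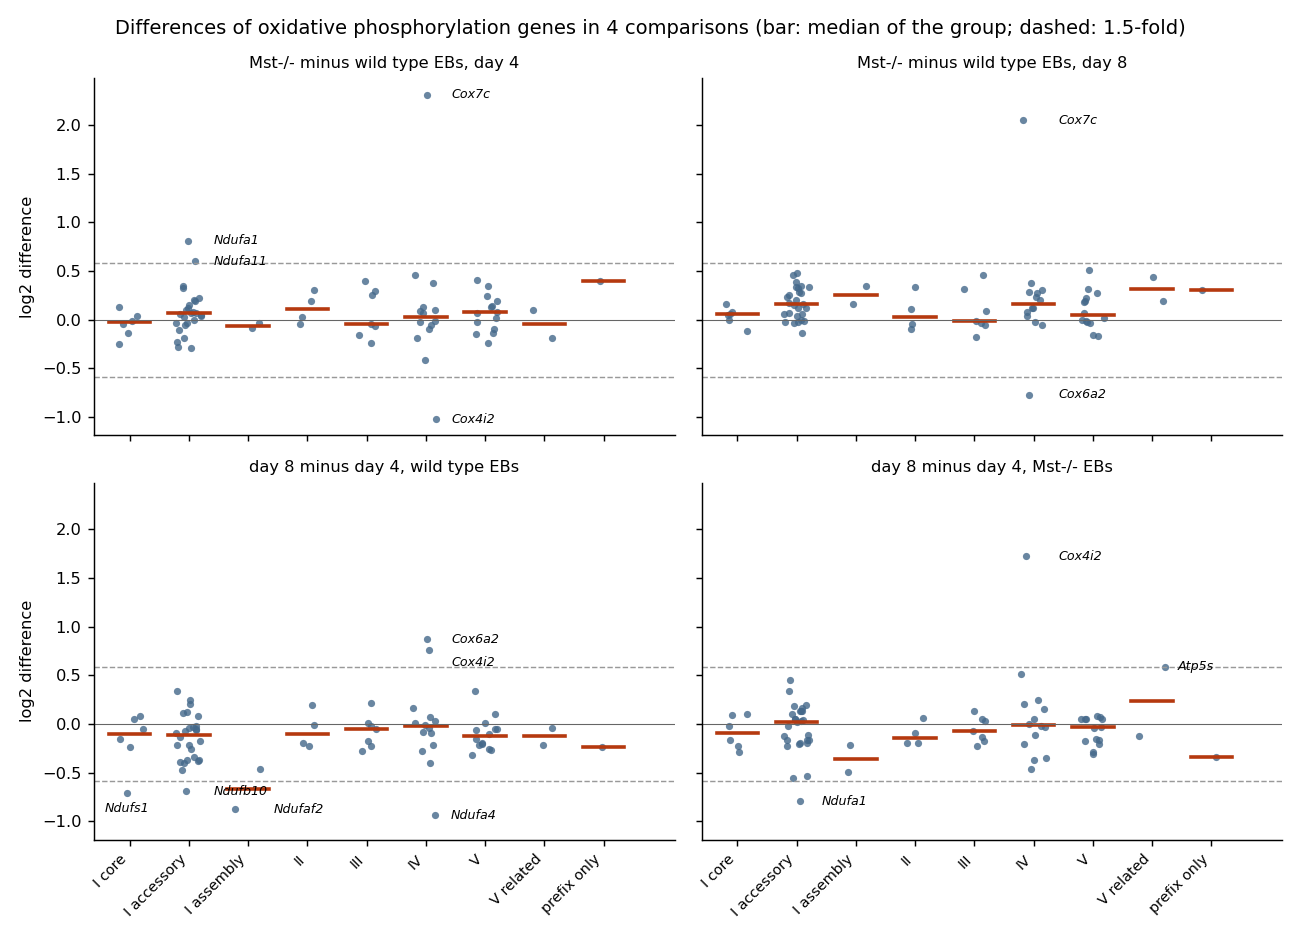
Log2 differences (vertical axis) of the genes above background in the 4 comparisons, by complex. Each point is a gene, red bars are medians of a group, dashed lines mark 1.5-fold, and named genes lie past it. Complexes II, III and V hold no gene past the lines in any comparison, and most named genes belong to complexes I and IV.

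Complex I, the entry of electrons from NADH, had 33 subunit genes among the members, 6 for core and 27 for accessory subunits. Between the genotypes no core subunit was past 1.5-fold, and the core differences lay between -0.25 and 0.13 at day 4 and between -0.12 and 0.17 at day 8. *Ndufa1*, an X-linked gene for a small accessory subunit of the membrane arm, had 8.26 (wild type) and 9.07 (*Mst-/-*) at day 4, and 7.89 and 8.28 at day 8. The fold at day 4 was 1.75, higher in *Mst-/-* EBs (log2 difference 0.81 ± 0.22, SD over 3 probe sets) and had 0.39 ± 0.68 at day 8. All 3 probe sets were higher on both days, although 1 of them was below background on all arrays. *Ndufb11*, the other X-linked complex I gene, had -0.04 and -0.02. Over all 3 X-linked members the median difference was -0.025 at day 4 and 0.23 at day 8, with 1 and 2 genes above 0.

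*Ndufa11*, another accessory subunit of the membrane arm, had 9.94 (wild type) and 10.54 (*Mst-/-*) at day 4, and 9.68 and 10.01 at day 8. Its difference of 0.60 ± 0.18 at day 4 (3 probe sets) was barely past 1.5-fold, and quantile normalization gave 0.58, within it. When the differences of single probe sets were taken before the median, *Ndufa1* and *Ndufa11* had 0.47 and 0.41 at day 4, both within 1.5-fold. *Ndufb10*, an accessory subunit, was higher in *Mst-/-* EBs in all 5 probe sets on both days, with 0.34 ± 0.13 and 0.48 ± 0.19. Over the 33 genes of complex I the median difference was 0.04 at day 4 and 0.12 at day 8.

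Complex II, which is also an enzyme of the tricarboxylic acid cycle, had small differences in every comparison. *Sdha*, the flavoprotein, had 11.85 (wild type) and 11.80 (*Mst-/-*) at day 4 and 11.65 and 11.60 at day 8. *Sdhb*, the iron-sulfur subunit, had 10.78, 10.97, 10.77 and 10.88 in the same order. At day 4, however, 7 of its 9 probe sets were lower in *Mst-/-* EBs, and the median of their differences was -0.03. The membrane anchor *Sdhc* had 11.30, 11.33, 11.49 and 11.39. The other anchor, *Sdhd*, showed the largest genotype differences of the complex, 0.30 ± 0.17 and 0.33 ± 0.27 (6 probe sets) on the respective days. All 6 probe sets were higher in *Mst-/-* EBs on both days, and the median of their differences was 0.485 and 0.43. All 4 genes lay within 1.5-fold in all 4 comparisons.

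None of the 7 genes of complex III passed 1.5-fold either. The core subunits *Uqcrc1* and *Uqcrc2* had 0.29 ± 0.12 and -0.24 ± 0.09 at day 4, and -0.06 and -0.02 at day 8. *Uqcrfs1*, the Rieske iron-sulfur protein, had -0.05 and -0.03. *Uqcrq*, a small subunit near the ubiquinone site, leaned upward in *Mst-/-* EBs with 0.40 ± 0.39 and 0.46 ± 0.39 (6 probe sets), about as large as the SD over its probe sets at day 4.

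Complex V was as even, with 14 genes and none past 1.5-fold. *Atp5a1* and *Atp5b*, the alpha and beta subunits of the catalytic head, had 0.07 and -0.02 at day 4 and -0.17 and 0.00 at day 8. The c ring that turns in the membrane is encoded by *Atp5g1*, *Atp5g2* and *Atp5g3*, whose mature proteins are alike. *Atp5g1* had 12.15 (wild type) and 12.55 (*Mst-/-*) at day 4 and 11.93 and 12.25 at day 8, differences of 0.41 ± 0.21 and 0.32 ± 0.14 (10 probe sets). *Atp5g2* had -0.10 ± 0.15 and 0.19 ± 0.15, and *Atp5g3* -0.15 ± 0.18 and 0.02 ± 0.08. Of the c subunit genes, *Atp5g1* alone was higher in *Mst-/-* EBs on both days by more than its SD. *Atp5k*, which encodes subunit e, had the largest day 8 difference of the complex, 0.51 ± 0.75 (5 probe sets), which was 0.62 when differences were taken first.

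Complex IV held the largest differences, and they came from few genes. *Cox7c*, a small structural subunit, had a median signal of 9.44 (wild type) and 11.75 (*Mst-/-*) at day 4, and of 9.35 and 11.40 at day 8, which would be 4.96-fold and 4.14-fold higher. The SD over its 7 probe sets was 1.70 and 1.61, and the difference rested on 2 of them. The 1st of these had 7.40 and 11.75 at day 4 and 7.22 and 11.40 at day 8. The 2nd had 7.59 and 9.65 at day 4 and 6.87 and 9.02 at day 8. The other 5 probe sets, which include the 3 brightest, differed by -0.36 to 0.29, and their median alone was 12.72 (wild type) and 12.36 (*Mst-/-*) at day 4 and 12.66 and 12.59 at day 8. Of all 7 probe sets, 6 were higher in *Mst-/-* EBs on each day, and the median of the probe set differences was 0.11 and 0.15. The signal of *Cox7c* therefore differed past 1.5-fold in part of its probe sets and not across the gene, and RefSeq also lists a pseudogene of it.

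**Figure D3:**
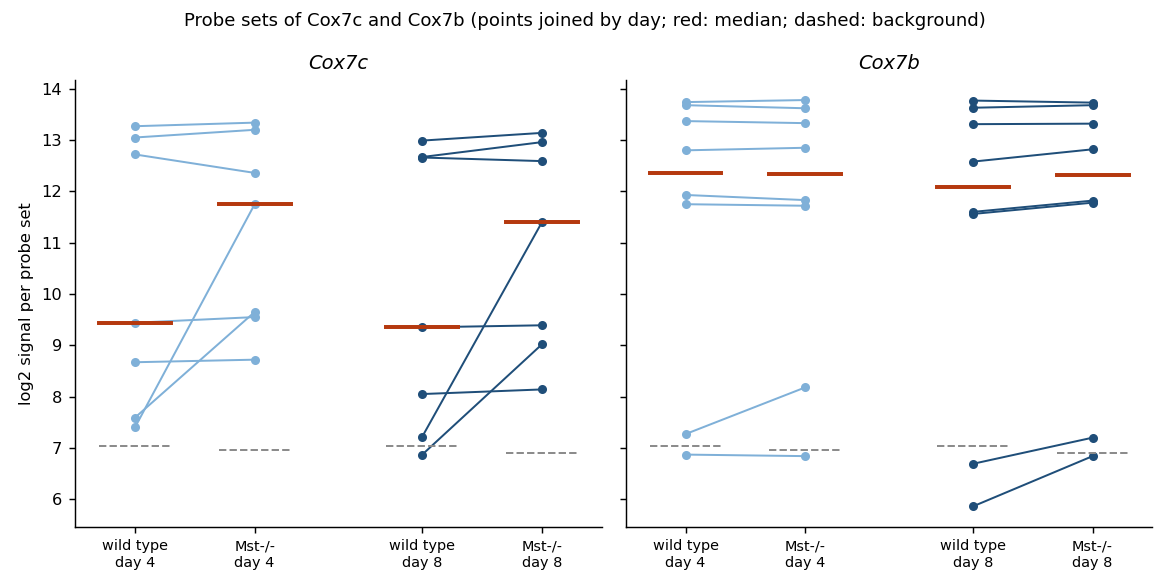
Log2 signal (vertical axis) of each probe set of *Cox7c* (7 probe sets) and, for comparison, of *Cox7b* (8 probe sets) on the 4 arrays. Lines join a probe set between wild type and *Mst-/-* EBs of the same day, red bars are medians and dashed lines the background of the array. In *Cox7c*, 2 lines climb steeply on both days, from 7.40 to 11.75 and from 7.59 to 9.65 at day 4, while the other 5 are nearly level.

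Other genes of the chain held such probe sets too. A probe set was counted when its genotype difference was at least 2-fold from the median difference of its gene on both days and on the same side. This held for 5 of 545 probe sets of the members above background (0.917%), against 0.478% of all 171076 probe sets. The 5 lay in 4 of 77 genes with at least 3 probe sets (5.19%), against 3.8% of 15223 such genes. Besides *Cox7c*, the genes were *Cox6a1*, where 1 of 6 probe sets had 4.75 (wild type) and 8.70 (*Mst-/-*) at day 4 and 6.26 and 8.77 at day 8. In *Cox7a2l*, a gene of supercomplex assembly, 1 of 4 had 5.90 and 7.70, then 5.72 and 7.85. In *Uqcrb*, a subunit of complex III, 1 of 5 had 10.29 and 11.83, then 10.22 and 11.89. All 5 were higher in *Mst-/-* EBs on both days, and their genes by the median had 0.13, -0.01 and -0.16 at day 4 apart from *Cox7c*. In the same count for the change from day 4 to day 8 in both genotypes, no probe set of the members was found, against 0.828% of all probe sets. The cause was not tested.

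Of the tissue forms of complex IV, *Cox4i2* and *Cox6a2* entered the comparisons, and each was past 1.5-fold between the genotypes on 1 of the days. *Cox4i2* had 8.33 (wild type) and 7.31 (*Mst-/-*) at day 4, and 9.09 and 9.04 at day 8. At day 4 it was 2.03-fold lower in *Mst-/-* EBs (log2 difference -1.02 ± 1.00, SD over 6 probe sets), with 4 probe sets between -2.29 and -0.87 and the 2 dimmest higher. At day 8 it had -0.06 ± 0.17, smaller in size than the 0.20 of its partner *Cox4i1*. All 6 probe sets were lower at day 8, between -0.48 and -0.01, and the median of the probe set differences was -0.275. The *Mst-/-* array of day 4 thus stood apart from the other 3, close to its background of 6.96. The levels of *Cox4i1* were 10.97, 11.35, 11.04 and 11.24 in the order of the arrays above, within 1.5-fold throughout.

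*Cox6a2* had 7.88 (wild type) and 7.47 (*Mst-/-*) at day 4, and 8.75 and 7.98 at day 8. At day 8 it was 1.71-fold lower in *Mst-/-* EBs (-0.77 ± 0.46, 5 probe sets), and all 5 probe sets were lower. At day 4 the difference was -0.41 ± 0.27, but 2 of the 5 probe sets were higher and the median of the probe set differences was -0.15. Its partner *Cox6a1* had 0.13 and 0.12 on the respective days. *Cox8b* was not compared, as its median was not above background, and its partner *Cox8a* had 12.67, 12.74, 12.67 and 12.79.

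Markers of heart and skeletal muscle were mostly lower in *Mst-/-* EBs at day 8, as was *Cox6a2*. Their mean signal over 20 genes was 7.66 (wild type) and 7.29 (*Mst-/-*) at day 4 and 9.67 and 8.99 at day 8. At day 4, 6 of 16 markers were over 1.5-fold lower in *Mst-/-* EBs (37.5%, against 8.53% of all genes) and 0 higher. *Cox6a2* was within 1.5-fold at that day. Of 17 compared at day 8, 11 had a signal over 1.5-fold lower in *Mst-/-* EBs and 0 a higher one. Of all genes, 8.21% were lower and 8.41% higher at day 8. The median of the markers was -0.73, and *Cox6a2* had -0.77. *Myl2*, a light chain of ventricular myosin, had 9.36 and 7.12, and *Tnnt2*, cardiac troponin T, 11.79 and 10.58. *Ppargc1a*, a coactivator of mitochondrial biogenesis in muscle and other tissues, was above background only in wild type EBs at day 8, at 7.89, where it was at least 1.97-fold higher than in *Mst-/-* EBs. Markers of red blood cells, which also differed, were over 1.5-fold lower at day 8 in 5 of 5 genes. The share of all genes was 8.21%, and the median of these markers was -2.50. The part of cell composition in the values of *Cox6a2* was not tested.

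**Figure D4:**
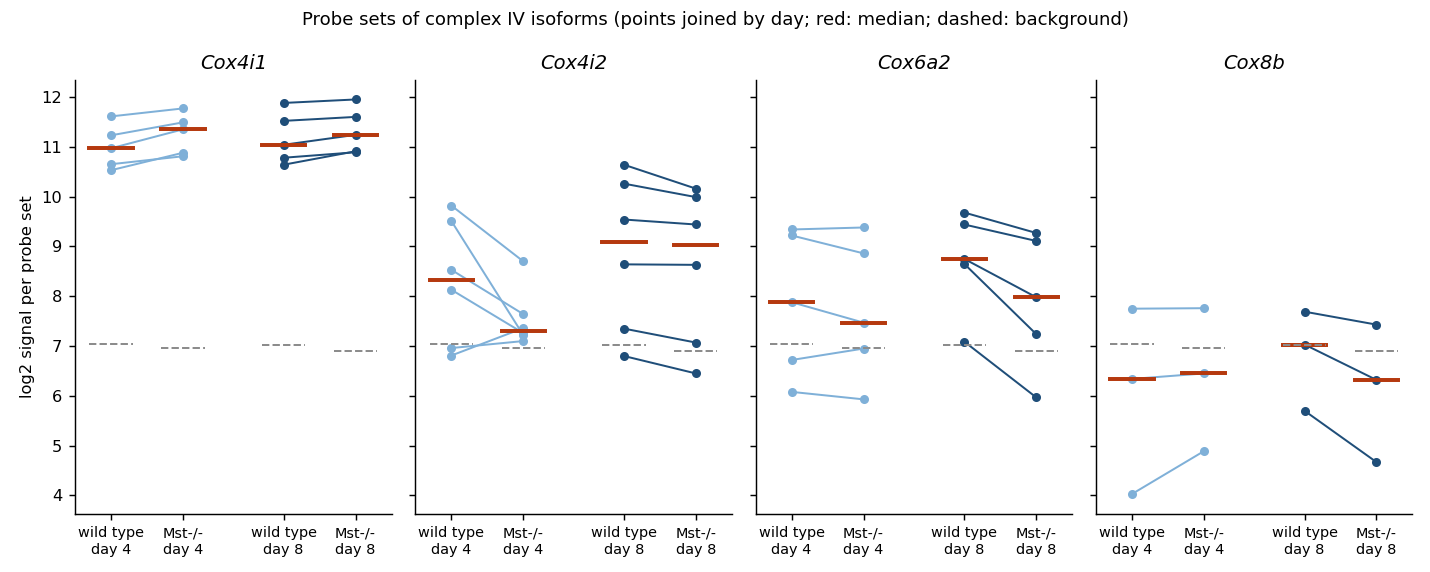
Log2 signal (vertical axis) of each probe set of *Cox4i1*, *Cox4i2*, *Cox6a2* and *Cox8b* on the 4 arrays. Lines join a probe set between wild type and *Mst-/-* EBs of the same day, red bars are medians and dashed lines the background. *Cox4i1* is level, and the median of *Cox4i2* is lower in *Mst-/-* EBs at day 4 (8.33 to 7.31). At day 8 its median is nearly level (9.09 to 9.04), with all 6 probe sets slightly lower. *Cox6a2* is lower at day 8 (8.75 to 7.98).

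The remaining complex IV genes lay within 1.5-fold between the genotypes. *Cox5a*, a subunit on the matrix side, had 0.46 ± 0.44 at day 4 and 0.30 ± 0.23 at day 8. *Cox6b1*, which bridges the dimer, had -0.19 and 0.04, *Cox7a2* 0.09 and 0.29, *Cox7a2l* -0.01 and 0.28, and *Cox7b* -0.03 and 0.23. *Cox6c* had a single probe set with -0.06 and -0.02. Among the 14 genes compared, 11 were above 0 at day 8 (78.6%), against 55.6% of all genes and 65.9% of the bright genes.

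From day 4 to day 8, the genes as a group stayed close to their level while many other genes changed. In wild type EBs, 2 of 76 genes were over 1.5-fold higher at day 8, *Cox4i2* and *Cox6a2*, and 4 were over 1.5-fold lower, *Ndufa4*, *Ndufaf2*, *Ndufs1* and *Ndufb10*, with a median of -0.09. Over all 12095 genes compared, 16.7% were higher and 12.7% lower. In *Mst-/-* EBs, 2 of 77 were higher, *Cox4i2* and *Atp5s*, and *Ndufa1* was lower, with a median of -0.03, against 13.3% higher and 7.47% lower of all 12148 genes. Among the bright genes, 25.4% were past 1.5-fold in wild type and 14.7% in *Mst-/-* EBs, and among members of that brightness 3.39% and 0.00%.

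The median signal of all genes was 8.34 on both day 4 arrays and 8.49 and 8.50 on the wild type and *Mst-/-* arrays of day 8. Centring the arrays on these medians shifted every change over time down by 0.145 in wild type and 0.16 in *Mst-/-* EBs. The members then split into 2 higher and 6 lower in wild type EBs, and into 1 higher and 5 lower in *Mst-/-* EBs, with medians of -0.24 and -0.19. Of all genes, 13.3% were then higher and 19.1% lower in wild type EBs, and 9.89% and 13.8% in *Mst-/-* EBs. The additional lower genes were *Ndufa9* and *Ndufaf1* in wild type EBs and *Ndufa4*, *Ndufa11*, *Ndufaf2* and *Ndufb10* in *Mst-/-* EBs. As deposited, 56 of 76 members (73.7%) were lower at day 8 in wild type EBs, against 51.3% of all genes and 60.7% of the bright genes.

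*Ndufa4*, which was first assigned to complex I and is now placed in complex IV, and *Ndufaf2* were over 1.5-fold lower at day 8 in wild type EBs. The signal of *Ndufa4* was 10.42 at day 4 and 9.49 at day 8 in wild type EBs, and 10.33 and 9.86 in *Mst-/-* EBs. This gene was 1.91-fold lower at day 8 in wild type EBs (-0.94 ± 0.37, 6 probe sets), with all 6 probe sets lower by 0.62 to 1.62, and had -0.47 ± 0.20 in *Mst-/-* EBs. The wild type array of day 8 was the lowest of the 4. *Ndufaf2*, the complex I assembly factor, had 8.89 and 8.01 in wild type EBs (-0.88 ± 0.42, 4 probe sets) and 8.85 and 8.36 in *Mst-/-* EBs (-0.50 ± 0.11). By the median of the probe set differences, *Ndufaf2* fell more in wild type EBs (-1.11) than *Ndufa4* (-0.81), so that their order depended on the summary.

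*Ndufs1*, the largest core subunit of complex I, which carries iron-sulfur clusters, had 10.63 and 9.93 in wild type EBs at day 4 and day 8, and 10.38 and 10.09 in *Mst-/-* EBs. The difference in wild type EBs was -0.71 ± 0.33 over 20 probe sets, of which 18 were lower. The median of the 20 differences was smaller, -0.44, within 1.5-fold. The same held for *Ndufb10*, with 8.08 and 7.39 in wild type EBs, a difference of -0.69 ± 0.26 (5 probe sets), and -0.29 as the median of the differences. *Ndufa1* in *Mst-/-* EBs had 9.07 and 8.28, a difference of -0.79 ± 0.53 (3 probe sets), or -0.41 by the median of the differences. In these genes the direction was shared by most probe sets, and whether the threshold was passed depended on how probe sets were summarized.

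*Cox4i2* was higher at day 8 in both genotypes, by 0.76 ± 0.41 in wild type and 1.73 ± 1.30 in *Mst-/-* EBs (1.69-fold and 3.31-fold). *Cox6a2* was higher by 0.87 ± 0.68 in wild type EBs (1.83-fold), with all 5 probe sets higher, and by 0.51 ± 0.24 in *Mst-/-* EBs. *Atp5s*, a coupling factor related gene that is no core part of the enzyme, had 7.94 in wild type and 8.38 in *Mst-/-* EBs at day 8 after 7.98 and 7.79 at day 4. Its change in *Mst-/-* EBs, 0.59 ± 0.57 (9 probe sets), was 0.43 after centring, within 1.5-fold.

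**Figure D5:**
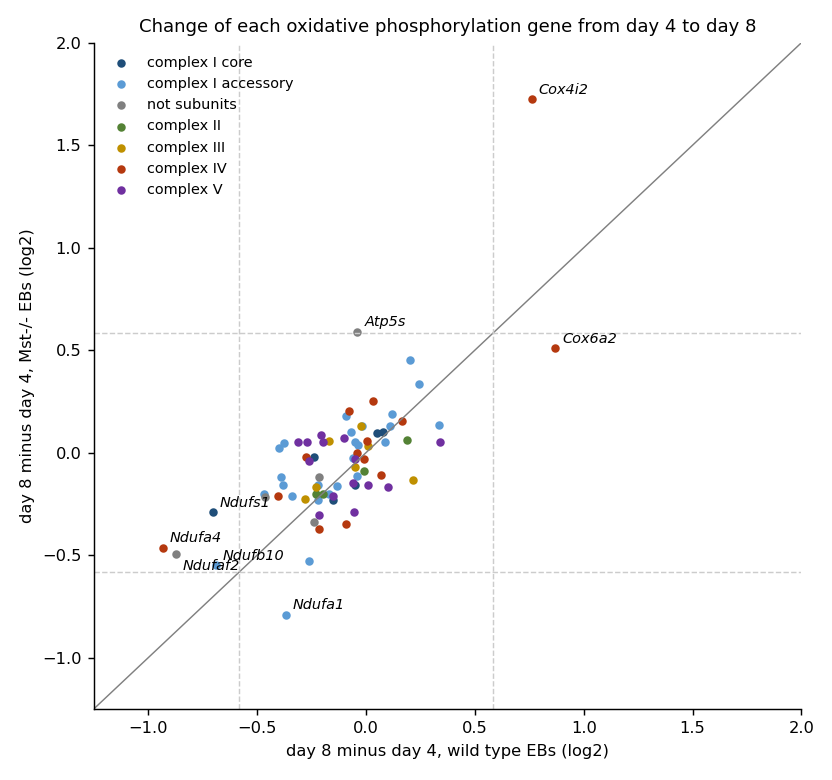
Change of each gene from day 4 to day 8 in wild type EBs (horizontal axis, log2) and in *Mst-/-* EBs (vertical axis, log2), colored by complex. The line marks equal change, dashed lines mark 1.5-fold, and genes past it in a genotype are named. Most genes lie near the origin, while *Cox4i2* lies at 0.76 and 1.73 and *Ndufa4* at -0.94 and -0.47.

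The change in *Mst-/-* EBs minus that in wild type EBs, with no test possible, was over 1.5-fold higher for *Cox4i2* (0.97) and *Atp5s* (0.63) and over 1.5-fold lower for none of 77 genes. Over all 12530 genes, 10.1% were higher and 11.5% lower. Of the members 62.3% were above 0, against 53.8% of all genes, with a median of 0.06.

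Several other mitochondrial genes were lower at day 8 in wild type EBs. Cytochrome c (*Cycs*), which carries electrons from complex III to complex IV, had 11.01 at day 4 and 9.81 at day 8 in wild type EBs, 2.30-fold lower (-1.20 ± 0.43, 11 probe sets), and 10.56 and 10.03 in *Mst-/-* EBs. Its partner in complex III, cytochrome c1 (*Cyc1*), had -0.34 ± 0.23 and -0.51 ± 0.18. Of 72 genes of mitochondrial ribosomal proteins, which make the subunits encoded in mitochondrial DNA, 16 were over 1.5-fold lower (22.2%, against 12.7% of all genes) and 1 was higher at day 8 in wild type EBs, and 65 had a value below 0, with a median of -0.38. In *Mst-/-* EBs there were 4 lower (5.56%, against 7.47% of all genes) and 1 higher, and the median was -0.20. *Mrpl47* led them with -1.26 ± 0.41 in wild type EBs (7 probe sets) and -0.48 ± 0.09 in *Mst-/-* EBs. After centring, 28 of the ribosomal genes (38.9%) were lower in wild type and 14 (19.4%) in *Mst-/-* EBs, against 19.1% and 13.8% of all genes.

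The tricarboxylic acid cycle list of 17 genes had 4 over 1.5-fold lower at day 8 in wild type EBs (23.5%, against 12.7% of all genes). There 1 was higher (5.88%, against 16.7% of all genes), and the median was -0.36. In *Mst-/-* EBs 1 was lower (5.88%, against 7.47%) and 1 higher (5.88%, against 13.3%). After centring, 7 (41.2%) were lower in wild type and 2 (11.8%) in *Mst-/-* EBs, against 19.1% and 13.8% of all genes. *Pdha1*, a subunit of pyruvate dehydrogenase on the X chromosome, had -0.93 ± 0.15 in wild type EBs (15 probe sets), while *Idh2*, mitochondrial isocitrate dehydrogenase, was higher with 0.86 ± 0.21 (14 probe sets). Among 35 other assembly factors of the complexes, 4 were lower in wild type (11.4%) and 1 in *Mst-/-* EBs (2.86%). As deposited, both shares were below those of all genes, and the medians were -0.28 and -0.09. After centring, 10 (28.6%) and 4 (11.4%) were lower, against 19.1% and 13.8% of all genes. *Fastkd2*, a protein of mitochondrial RNA, had -0.91 ± 0.34 in wild type EBs (21 probe sets). Of 16 regulators of mitochondrial biogenesis, 4 were lower and 1, *Ppargc1a*, was higher in wild type EBs. Of all genes, 12.7% were lower and 16.7% higher there. In *Mst-/-* EBs, 1 of 15 regulators was lower and 1 higher, against 7.47% and 13.3% of all genes. After centring, 7 (43.8%) were lower in wild type and 2 (13.3%) in *Mst-/-* EBs, against 19.1% and 13.8% of all genes. *Tfam* packages and transcribes mitochondrial DNA. This gene had 10.09 and 9.19 in wild type EBs (-0.90 ± 0.16, 14 probe sets) and 9.86 and 9.50 in *Mst-/-* EBs.

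Between the genotypes, the ribosomal genes had 4 higher and 1 lower at day 4, and 9 higher and 1 lower at day 8, with medians of 0.14 and 0.32. The higher shares were 5.56% and 12.5%, against 10.3% and 8.41% of all genes. *Mrps6* had -0.41 ± 0.11 and 0.74 ± 0.62 (4 probe sets). Of 35 other assembly factors, 2 were higher (5.71%, below the share of all genes) and none lower at day 8, *Sco2* with 0.96 in its single probe set and *Bcs1l*, the chaperone of the Rieske protein, with 0.79 ± 0.38 (10 probe sets). *Nrf1*, the factor of the NRF1 word above, had 0.37 ± 0.27 and 0.71 ± 0.31 (15 probe sets). *Polg*, the polymerase of mitochondrial DNA, was lower in *Mst-/-* EBs at day 4, with -1.04 ± 0.47 (34 probe sets), and had 0.37 ± 0.40 at day 8. Of 11 genes of uncoupling and superoxide removal, 1 was higher at day 4 (9.09%, against 10.3% of all genes), *Sod2* with 0.73 ± 0.31 (9 probe sets). None was past 1.5-fold at day 8, against 8.41% higher and 8.21% lower of all genes.

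Other cell markers also differed between these arrays. The mean signal of 6 pluripotency genes was 9.62 (wild type) and 10.93 (*Mst-/-*) at day 4 and 9.12 and 10.36 at day 8. That of 6 germ cell genes was 6.52, 7.40, 6.01 and 6.57 in the same order, mostly below background, and *Cox7b2* of testis was at its highest, 4.60, in *Mst-/-* EBs at day 4, far below background. The mean of 5 red blood cell genes was 6.72, 6.82, 11.82 and 9.26. The part of cell composition in the small differences of the subunits was not tested.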

How the data were processed

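Expression was measured on 4 mouse exon arrays of Affymetrix (type 1.0 ST), 1 for each genotype and day of EBs. The values that the authors deposited are on a log2 scale, for 229581 probe sets. Affymetrix Expression Console is named in the submitters' notes (no version), and Partek and Genespring in the methods, with a 1.5-fold threshold. How the values were normalized is not stated in these sources. The number of arrays limits the precision.

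The platform annotation gave 1 symbol to 209279 probe sets, several to 4446 and none to 15856, and only the first kind was used. Symbols were kept as on the array. A comparison used the genes that exceeded background on 1 or both of its arrays. The difference is that of the medians, and no scaling was added. The members and lists were chosen with earlier results of these data known. Named genes were *Stk4*, each member past 1.5-fold, the *Sdh* genes, isoforms and partners, the largest differences of each complex, and up to 4 genes of each other list. Markers of muscle, pluripotent, germ and red blood cells were listed as checks. For 9 members RefSeq lists a pseudogene of the same name, whose RNA the array may not separate. Alternatives changed 1 choice at a time. The computation was tested on simulated data. Promoter windows are from RefSeq GRCm38.p6, and protein sequences were not used here. Python 3.11.15, numpy 2.4.6, pandas 2.3.3 and matplotlib 3.10.9 were used.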

Additional observations from a re-analysis of the deposited data

Results flagged for a closer look

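*Atp5l*, which encodes subunit g of ATP synthase, entered no comparison because its 6 probe sets also carry the symbol of *Atp5l2*. Their median signal was 10.13 (wild type) and 10.28 (*Mst-/-*) at day 4 and 9.76 and 9.98 at day 8, so that the lowest value, 9.755, lay above background. It stands here as a signal in data outside the main measurement.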

How the results depend on the processing

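The median difference over the genes kept its sign and moved by less than the SD over the genes in all 4 comparisons under each alternative run, except that the median of the probe set differences gave 0.00 at day 4 in place of 0.04. The counts past 1.5-fold are small, and many moved by over 1.5 times. With the brightest probe set, 0 genes were higher in *Mst-/-* EBs at day 4 and 0 lower at day 8. With time, wild type EBs had 1 higher and 2 lower and *Mst-/-* EBs 1 higher, while the change between genotypes had 1 higher and 1 lower. With the mean over probe sets, 6 genes were higher in *Mst-/-* EBs at day 8, 1 was higher with time in wild type and 0 lower in *Mst-/-* EBs, and the change between genotypes had 4 higher and 1 lower. Centring gave 1 higher and 5 lower with time in *Mst-/-* EBs. Quantile normalization gave 2 lower at day 8, 1 higher and 3 lower with time in *Mst-/-* EBs, and 1 lower for the change between genotypes. Without the background filter, 2 were lower at day 8, 2 lower with time in *Mst-/-* EBs and 2 lower for the change between genotypes. At 2-fold, 1 was higher at day 4, 0 lower at day 8, 0 higher and 0 lower with time in wild type EBs, 1 higher and 0 lower in *Mst-/-* EBs, and 0 higher for the change between genotypes. Where 75% of at least 3 probe sets had to agree, 0 were lower at day 4. With time, 1 was higher and 0 lower in *Mst-/-* EBs. By current names, which add 7 genes, 5 were higher at day 4, 1 higher and 2 lower with time in *Mst-/-* EBs, and 1 higher for the change between genotypes. Taking the median of the probe set differences, chosen after seeing the data, gave 0 higher at day 4, 2 higher at day 8, 2 lower with time in wild type and 0 lower in *Mst-/-* EBs. The cause was not tested.

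*Cox7c* without its 2 probe sets, also chosen after seeing the data, had -0.36 at day 4 and -0.07 at day 8. These are differences of medians, while 6 of all 7 probe sets were higher in *Mst-/-* EBs on each day. The median of the 7 probe set differences was 0.11 at day 4 and 0.15 at day 8. The brightest probe set of *Atp5s* had -0.14 with time in *Mst-/-* EBs. *Cox4i2* at day 4 and with time in *Mst-/-* EBs, and *Ndufa4* and *Ndufaf2* with time in wild type EBs, stayed past 1.5-fold in all 5 alternatives run for the values of single genes. Where 75% of probe sets had to agree, both *Cox4i2* calls were lost, with 4 of 6 probe sets in the direction in each, and *Atp5s* (8 of 9) was the gene left higher with time in *Mst-/-* EBs. Of 484 values of single genes under an alternative, 387 moved by less than the SD over probe sets, 94 moved by more or had a single probe set, and 3 changed sign past the threshold. No paired analysis was possible because each genotype and day had 1 array.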

Other observations

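Probe sets and names that the rule left out hold further values. *Uqcrb* has 2 probe sets with several symbols, at 11.46 (wild type) and 12.29 (*Mst-/-*) at day 4 and at 11.34 and 12.19 at day 8, which gave 0.83 and 0.86, whereas its 5 probe sets with 1 symbol gave -0.16 and -0.18. By current names, *Ndufaf3* and *Ndufaf7*, assembly factors of complex I, were higher in *Mst-/-* EBs at day 4, with 0.79 and 0.81, and had 0.50 and 0.35 at day 8. *Ndufaf4*, another such factor, was lower at day 8 in both genotypes, with -0.98 in wild type and -0.84 in *Mst-/-* EBs. *Uqcr10*, a subunit of complex III, had 0.39 and 0.49 between the genotypes at day 4 and day 8.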
